A study of Mus musculus with 3 samples.

Results

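Heat shock proteins and their DnaJ partners were examined in adult mouse hearts with and without Lrrc10, a cardiac protein of the Z-disc and diad. The set was taken from the gene symbols printed on the array, as every symbol that begins with Hsp or Dnaj together with Cryab, and Hspg2, Hspbp1 and Hspbap1 were left out because they are not chaperones of these families. This gave 66 genes of 28090 gene names, read by 124 of 41174 probes. RNA pooled from 2 hearts was hybridized to each channel of 3 two-colour arrays (replicates 1 to 3), one pool labelled with Cy5 and one with Cy3. By the sample labels the Cy5 pools came from Lrrc10-/- mice and the Cy3 pools from wild type mice (WT, Lrrc10+/+), all C57/BL6 and all 2 months of age. The labels name no promoter or cell type for the deletion, the dyes were not swapped, and the WT sample was described as a reference pool. The methods speak of pools of 2 littermate hearts of either genotype and of 3 independent biological replicates. Labels and methods together leave unknown whether the same WT pool was used on every array. Whole hearts were pooled, so fewer cells of a type and less RNA per cell cannot be told apart in any value that follows.

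Chaperones bind proteins that are not folded and keep them from clumping. Small heat shock proteins hold unfolded clients without ATP, and in heart muscle several of them sit at the Z-disc and protect the myofilaments. Hsp70 proteins fold clients in cycles of ATP hydrolysis that are started by a DnaJ protein, also called Hsp40, which delivers the client, and Hsp110 releases the ADP. Hsp90 finishes the folding of kinases and receptors, and Hsp60 with its lid Hsp10 folds proteins inside mitochondria. Many of these genes are switched on by heat shock factor 1, which binds inverted repeats of GAA in their promoters.

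Lrrc10 itself was read first. In Cy3 its processed signal (background-subtracted and dye-normalized, in arbitrary units) read 476, 443 and 352 on replicates 1, 2 and 3, and in Cy5 it read 14283, 20828 and 17703. The log2 ratio of Cy5 over Cy3 was 5.37 ± 0.41 (SD, n = 3; limma adjusted p = 0.000251). The deleted gene was therefore brighter in the channel labelled Lrrc10-/- on every array, which goes against the labels, and the direction also opposes the one the study gives for Nppa, which was brighter in Cy3 here. Each direction is therefore named by its dye, where Cy5 stands for the pools labelled Lrrc10-/- and Cy3 for those labelled WT. The arrays differed from each other. Over all tested probes the log2 ratios of replicates 1 and 2 correlated with r = 0.10 across probes, those of 1 and 3 with r = -0.04 and those of 2 and 3 with r = -0.18. Among the 4 atrial markers, Myl7 had log2 ratios of -0.21, 3.41 and -1.27 and Sln of 0.08, 3.69 and -1.15, so these 2 transcripts lay on opposite sides of 0 on replicates 2 and 3. The other two did not share this, with -0.12, 1.41 and 0.23 for Myl4 and -0.89, -0.61 and -0.82 for Nppa. All 4 were well above background. Their summed signal lay between 76789 and 120935 in Cy3 and between 43551 and 84070 in Cy5. The log2 ratios of the sums were -0.89, -0.52 and -0.82, close to those of Nppa. The 8 cardiomyocyte markers were bright in both channels, and 7 of them were saturated in at least one. The part of atrial tissue in the results below was not tested.

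Of the 66 genes, 62 had an unsaturated probe with a mean signal of at least 20 and were tested. Dnajb13, Dnajb7, Dnajc6 and the pseudogene Hsp25-ps1 lay below that level, and none of these was well above background in any channel. Each gene is described by its brightest unsaturated probe. The members were bright, with a median signal of 5973 against 611 over all 20133 tested genes, and 61 of the 62 were well above background in both channels on all arrays, the exception being Dnajc5b. Their mean log2 ratios ran from -0.45 (Dnajc5b) to 0.42 (Dnaja1), and 41 of 62 lay within 0.25 of 0. The lowest value rested on replicate 3 at a dim probe, and Dnajc5b was at 0.44 without that array. The median over the members was 0.07, beside -0.01 over all genes.

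No member differed between the channels by limma at an adjusted p under 0.05, where 0.00993% of all genes were called, and the lowest adjusted p of a member was 1.00, which does not show that the channels were alike. At an unadjusted p under 0.05 limma called 0 members in either direction, beside 1.56% of all genes brighter in Cy5 and 1.64% brighter in Cy3. The methods describe a selection of probes by a p-value and by a ratio of 1.2 or more in one direction on all 3 arrays, and do not say that the p is one of each array. Read here as an array p under 0.05 on each array, it took 0 members, beside 0.447% of all genes in Cy5 and 0.507% in Cy3. The spread between arrays was larger than most means. The median SD of a member was 0.33, beside 0.37 for all genes. Read without a threshold, Cy5 was the brighter channel on every array for 11 members and Cy3 for 7, which is 17.7% and 11.3% of the members beside 9.53% and 11.9% of all genes. These counts turned on the normalization, since with normexp and median centring 39 members lay above 0 on each array (42.8% of all genes) and 0 below it (11.0%). With the mean of all unsaturated probes of a gene, 8 members lay above 0 on each array (9.61% of all genes) and 7 below it (11.4%). With normexp and loess the counts were 13 (16.2%) and 10 (16.3%), and 6 of the 11 and 6 of the 7 stayed on their side. Of 16 other tested probes in 10 of these 18 genes, 1 lay on the gene's side on all arrays, a probe of Dnaja1.

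**Figure D1:**
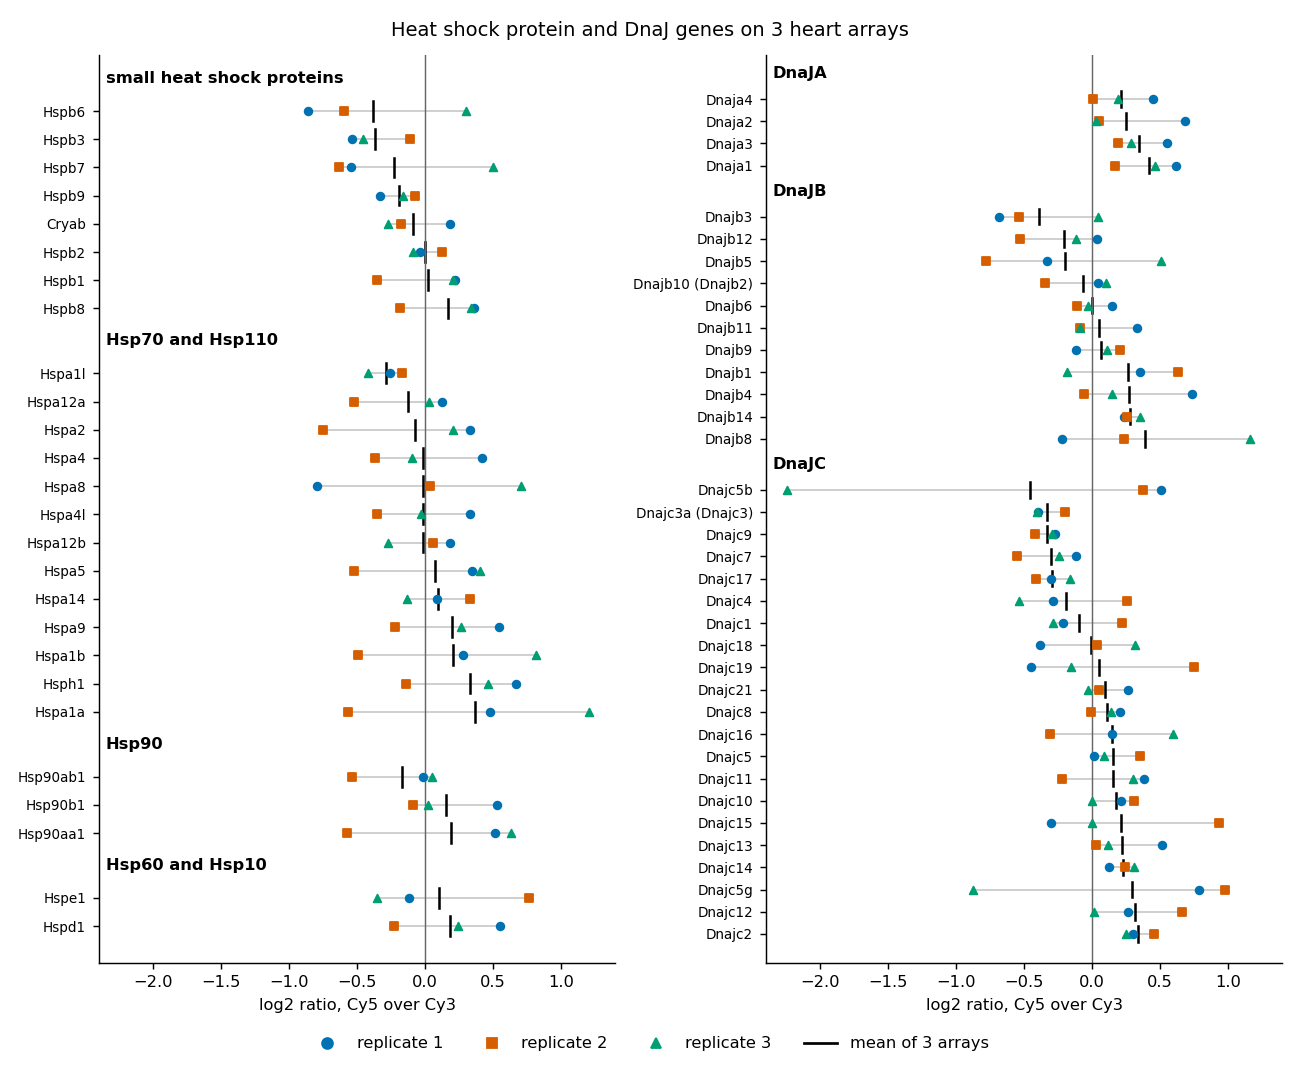
The horizontal axis is log2 of the Cy5 signal (Lrrc10-/- by the labels) over the Cy3 signal (WT by the labels), each row is one of the 62 tested genes under its family, coloured points are the 3 arrays and the black tick is their mean. All 4 DnaJA genes lie to the right of 0 on every array, while Hspa1a runs from -0.57 on replicate 2 to 1.2 on replicate 3.

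The DnaJA genes encode the co-chaperones built most like bacterial DnaJ, which pass clients to Hsp70. All 4 of them were brighter in Cy5 on all 3 arrays, beside 9.53% of all genes, with a family median of 0.30. Dnaja1, a cytosolic partner of Hsc70, had a signal of 7247, 13059 and 9274 in Cy3 and 11090, 14666 and 12791 in Cy5 on replicates 1, 2 and 3. Its log2 ratios of 0.61, 0.17 and 0.46 did not cross 0, and their mean of 0.42 ± 0.23 (SD, n = 3), a ratio of 1.33, was the highest of all members in the deposited ratios, with an unadjusted limma p of 0.0566. It ranked 15 of 62 with normexp and loess and 16 with normexp and median centring. The 2 other probes of Dnaja1 gave means of 0.31 and 0.43, and one of these was at -0.12 on replicate 3. Dnaja3, the DnaJ protein of the mitochondrial matrix, had log2 ratios of 0.55, 0.19 and 0.28. The lowest of these came from replicate 2, as for Dnaja1. Dnaja2, another cytosolic form, had log2 ratios of 0.68, 0.05 and 0.03, and Dnaja4, a form found in muscle and heart, had 0.45, 0.01 and 0.19. For both genes the ratio was large on replicate 1 alone, and without that array the mean of Dnaja2 was 0.04. The means of all 4 genes stayed above 0 under every setting tried, between 0.04 and 0.75, but single arrays did not. With normexp and loess Dnaja2 was at -0.05 on replicate 3 and Dnaja4 at -0.09 on replicate 2. The other probes of Dnaja3 (-0.34) and Dnaja4 (-0.20) were below 0 on replicate 2 as well.

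The promoter of Dnaja1 is shown because Dnaja1 had the highest mean in the deposited ratios, and it holds one pair of heat shock units. Motifs were searched as 2 units of the inverted repeat, GAANNTTC or TTCNNGAA, each of which reads the same on both strands, and as 3 units, in which the pair overlap by their shared 3 bases. The windows came from RefSeq (GRCm38.p6) and ran from 250 bases before to 50 bases after each start site. Capitals mark the match, which lies from -124 to -117, and the 150 bases before the start are printed 5′ to 3′.
Dnaja1, chr4:40722318-40722467, plus strand: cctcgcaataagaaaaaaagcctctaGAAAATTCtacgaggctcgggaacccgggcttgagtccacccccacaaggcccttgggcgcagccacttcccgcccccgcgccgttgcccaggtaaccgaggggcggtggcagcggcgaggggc
Of the 53 member genes with a RefSeq window, 15 (28.3%) held a match of 2 units, beside 17.0% of 27025 genes. A match of 3 units was found in 4 members (7.55%), Hspd1, Hspe1, Dnajb6 and Hsph1, beside 0.662% of all genes. Dnaja4 held 2 separate pairs, from -90 to -83 and from -52 to -45. A match describes the letters of the window and is no measured binding.

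Of 13 Hsp70 and Hsp110 genes tested, 0 were brighter in Cy5 on all arrays (9.53% of all genes) and 1 in Cy3 (11.9%). Most Hsp70 genes thus changed side between arrays, as most of all genes did. Hspa1a and Hspa1b, the inducible Hsp70 pair that is nearly silent in unstressed tissue and rises with stress, lie 10120 bases apart on chromosome 17 (34969359 to 34972156 and 34956429 to 34959238, GRCm38.p6). Hspa1a had a signal of 487, 1287 and 1023 in Cy3 and of 678, 867 and 2357 in Cy5 on replicates 1, 2 and 3. Cy5 was thus the brighter channel on replicates 1 and 3 and the dimmer one on replicate 2. The log2 ratios were 0.48, -0.57 and 1.2, with a mean of 0.37 ± 0.89 (SD, n = 3), one of the 3 largest SDs among the members. A second probe of Hspa1a gave 0.39, -0.85 and 1.02. Hspa1b followed the same order, with log2 ratios of 0.28, -0.49 and 0.82. Its second probe was well above background in 1 of 6 channel readings and was not tested. Replicates 1 and 3 lay above 0 and replicate 2 below it for all 3 tested probes of the pair. The proteins and transcripts of the 2 genes are nearly identical, so each probe may read both, which was not tested.

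Their promoters are shown because the pair moved together from array to array. The windows share 149 of 150 bases before the start site, and each holds a single pair of heat shock units (capitals) from -104 to -97.
Hspa1a, chr17:34972157-34972306, minus strand: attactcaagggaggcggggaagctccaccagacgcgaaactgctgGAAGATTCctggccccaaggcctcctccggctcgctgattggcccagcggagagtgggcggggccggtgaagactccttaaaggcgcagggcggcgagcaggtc
Hspa1b, chr17:34959239-34959388, minus strand: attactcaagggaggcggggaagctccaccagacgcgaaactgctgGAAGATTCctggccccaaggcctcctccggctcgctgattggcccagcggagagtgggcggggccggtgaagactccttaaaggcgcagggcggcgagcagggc
Hspa1l, the testis form of Hsp70, lies on the other side of the Hspa1a promoter (34972703 to 34979228), 546 bases from the start site of Hspa1a. It did not share the order of its neighbours. Its log2 ratios were -0.26, -0.17 and -0.42, below 0 on all arrays, with a mean of -0.28 ± 0.13 (SD, n = 3) that turned to 0.20 with normexp and median centring.

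Of the 10 other Hsp70 and Hsp110 genes, 5 were split in the same way. Hspa5 (BiP), the Hsp70 of the endoplasmic reticulum, had a signal of 38461, 88560 and 49024 in Cy3 and of 48754, 61629 and 64965 in Cy5. The log2 ratios of 0.34, -0.52 and 0.41 averaged to 0.08 ± 0.52 (SD, n = 3). Hspa9 (mortalin), the Hsp70 of mitochondria, gave 0.54, -0.22 and 0.26. Hsph1, an inducible Hsp110 that recharges Hsp70, gave 0.67, -0.14 and 0.46, and its mean of 0.33 was the second highest in the family after Hspa1a. Replicate 2 was the lowest array for each of these genes. Hspa2, a form known from testis, gave 0.33, -0.75 and 0.21, and Hspa4, a constitutive Hsp110, gave 0.42, -0.37 and -0.10. Hspa4l, its relative, gave 0.33, -0.35 and -0.03. Only Hspa14 (0.09, 0.33 and -0.13) and Hspa12b (0.18, 0.06 and -0.28) of the family were above 0 on replicates 1 and 2 and below it on replicate 3. The family median was 0.33 on replicate 1, -0.35 on replicate 2 and 0.21 on replicate 3, while the medians of all genes on these arrays were 0.01, 0.04 and -0.05. Replicate 2 was also the lowest array in some lists outside the family. Medians were 0.13, -0.32 and 0.15 for the Hsp90 partners, 0.05, -0.46 and -0.21 for the mitochondrial partners and 0.19, -0.48 and -0.17 for the endothelial markers. In other lists replicate 2 was the highest array. Medians there were -0.11, 0.05 and 0.00 for cytosolic chaperonin and prefoldin genes and 0.54, 0.78 and -0.17 for red blood cell markers.

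Hspa8 (Hsc70), the constitutive Hsp70 of the cytosol, is given apart because one of its probes was saturated. That probe was saturated in 1 of 6 channel readings and gave log2 ratios of -0.12, 0.22 and -0.09, with a mean of 0.00 ± 0.19 (SD, n = 3). The unsaturated probe had a signal of 43452, 40691 and 18558 in Cy3 and of 25013, 41798 and 30330 in Cy5. Its log2 ratios were -0.80, 0.04 and 0.71, so the probes shared a mean near 0 but differed on replicates 1 and 3. Hspa12a, a distant relative of Hsp70, had 4 unsaturated probes whose means ran from -0.45 to 0.26, the only member whose tested probes had means more than 0.5 apart. The lowest of the 4 was dim, well above background in 3 of 6 channel readings.

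Hsp90 genes did not move as one. Hsp90aa1, the stress-inducible cytosolic form, had a signal of 27354, 70489 and 30618 in Cy3 and of 39044, 47424 and 47520 in Cy5. Its log2 ratios of 0.51, -0.57 and 0.63 averaged to 0.19 ± 0.66 (SD, n = 3), in the same order as Hspa1a. Hsp90ab1, the constitutive cytosolic form, gave -0.01, -0.54 and 0.05. Hsp90b1 (Grp94), which folds secreted and membrane proteins in the endoplasmic reticulum, gave 0.53, -0.09 and 0.02. At these brightest probes all 3 genes were brighter in Cy3 on replicate 2. A second Hsp90b1 probe gave 0.00, 0.04 and 0.76 and a second Hsp90ab1 probe -0.49, -0.78 and 0.72, each of them high on replicate 3.

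Signs were counted over all members to see how common this order was. Cy5 was brighter on replicates 1 and 3 and Cy3 on replicate 2 for 17 of 62 members (27.4%), beside 13.8% of all genes, and the other 45 members were spread over the remaining 7 sign patterns. The 17 were Hspa1a, Hspa1b, Hspa2, Hspa5, Hspa9, Hspa12a, Hsph1, Hsp90aa1, Hsp90b1, Hspd1, Hspb1, Hspb8, Dnajb4, Dnajb10 (Dnajb2), Dnajc8, Dnajc11 and Dnajc16. With at least 1.2-fold on each array the order held for 4 members (6.45%), Hspa1a, Hspa1b, Hsp90aa1 and Hspa5, beside 2.35% of all genes. These counts were made after the values had been seen and carry no test. With a normexp background and loess 13 members had the order (12.7% of all genes), 11 of them among the 17, and Hspa5, Hsph1 and Hsp90b1 were among those that lost it. With normexp and median centring 9 had it (10.4%), of which 4 were among the 17 (Hspa2, Hspa5, Hspa12a and Dnajb10), while Hspa1a, Hspa1b and Hsp90aa1 lay just above 0 on replicate 2 (0.01, 0.05 and 0.02). That setting moved the median of all genes upwards, and replicate 2 stayed the lowest array for these 3 genes. The plot of array by array direction gives all 8 patterns.

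**Figure D2:**
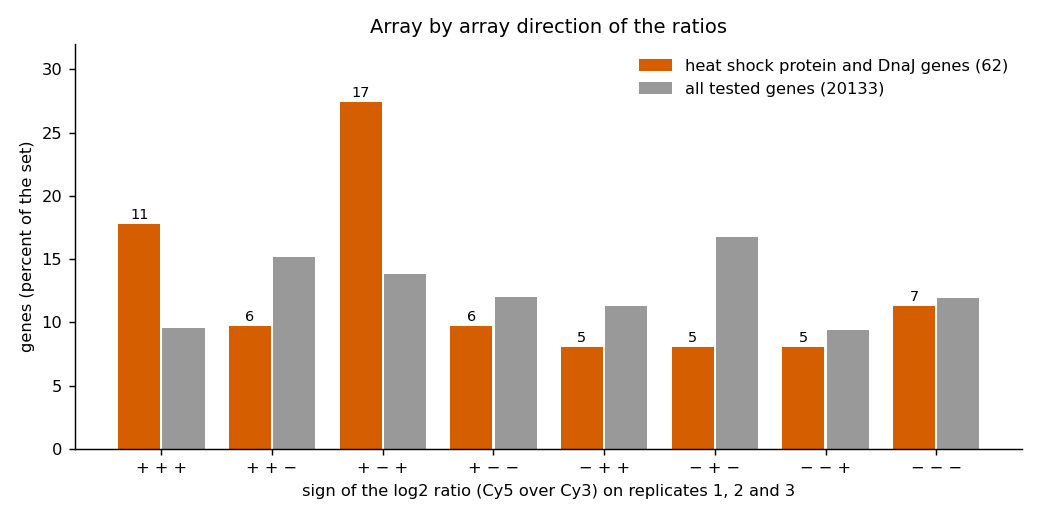
The horizontal axis lists the 8 possible signs of the log2 ratio (Cy5 over Cy3) on replicates 1, 2 and 3, the vertical axis is the percentage of genes, orange bars are the 62 members with their number on top and grey bars are all 20133 tested genes. The pattern that is below 0 on replicate 2 alone holds 17 members, 27.4% beside 13.8% of all genes.

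Each array was also read by its own error model. On replicate 1, 14 members were at least 1.2-fold brighter in Cy5 with an array p under 0.05 (22.6%, beside 12.5% of all genes) and 6 in Cy3 (9.68%, beside 12.6%). On replicate 2 the balance was turned, with 7 in Cy5 (11.3%, beside 20.5%) and 15 in Cy3 (24.2%, beside 17.2%). On replicate 3, 10 were brighter in Cy5 (16.1%, beside 11.4%) and 6 in Cy3 (9.68%, beside 15.7%). These per-array p-values describe the spots of one array and not the spread between hearts. Members called in Cy5 on one array and in Cy3 on another numbered 8 (12.9%), which is near the 14.7% of all genes. They were Hspa1a, Hspa1b, Hsp90aa1, Hspa8, Hspb7, Dnajb5, Dnajc19 and Dnajc5g.

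**Figure D3:**
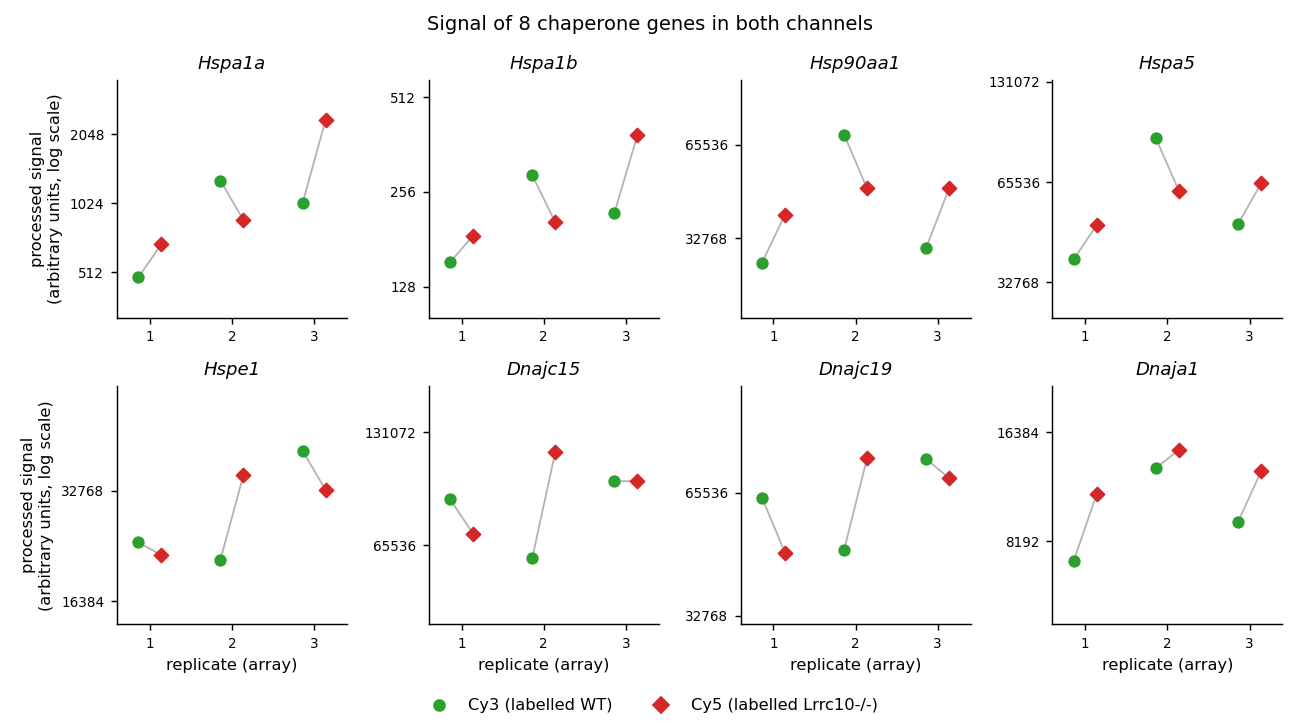
Each panel is one gene, the horizontal axis is the replicate, the vertical axis is the processed signal in arbitrary units on a log scale, circles are Cy3 (labelled WT), diamonds are Cy5 (labelled Lrrc10-/-) and a grey line joins the channels of an array. Hspa1a, Hspa1b, Hsp90aa1 and Hspa5 have Cy5 above Cy3 on replicates 1 and 3 and below it on replicate 2, Hspe1, Dnajc15 and Dnajc19 have their largest Cy5 excess on replicate 2, and Dnaja1 has Cy5 above Cy3 on every array.

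The mitochondrial members did not share one order. Hspd1 (Hsp60), the folding chamber of the matrix, had log2 ratios of 0.55, -0.23 and 0.24, and Hspe1 (Hsp10), the lid of that chamber, had -0.12, 0.77 and -0.35. The 2 genes thus lay on opposite sides of 0 on each array. They lie head to head on chromosome 1 (55077833 to 55088243 and 55088148 to 55091317) and share a stretch in which 2 overlapping matches of 3 units make a run of 4 heat shock units. That stretch is shown from both strands, with the units in capitals, and the Dnajb6 match, which has 3 units and is the only other such match found before a start site, stands beside it.
Hspe1, chr1:55088053-55088082, plus strand: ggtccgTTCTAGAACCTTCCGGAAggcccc
Hspd1, chr1:55088053-55088082, minus strand: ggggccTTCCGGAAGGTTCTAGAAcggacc
Dnajb6, chr5:29735844-29735872, plus strand: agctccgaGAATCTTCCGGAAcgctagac
Hspe1 had a signal of 23723, 21248 and 42205 in Cy3 and of 21897, 36139 and 33001 in Cy5, so that Cy3 had its lowest reading on replicate 2. Dnajb6, which keeps aggregation-prone proteins soluble in muscle, had log2 ratios of 0.14, -0.11 and -0.03, close to 0 on every array.

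Dnajc15 and Dnajc19, DnaJ proteins of the inner mitochondrial membrane that serve protein import, behaved like Hspe1. Dnajc15 had a signal of 86950, 60619 and 97134 in Cy3 and of 70462, 116040 and 97237 in Cy5, with log2 ratios of -0.30, 0.94 and 0.00. Dnajc19, whose loss in people causes dilated cardiomyopathy with ataxia, had log2 ratios of -0.45, 0.75 and -0.16. Its 2 other probes gave 0.79 and 0.63 on replicate 2. For all 3 genes replicate 2 stood far above the other 2 arrays. On replicate 2 Myl7, Sln and Myl4 were also brighter in Cy5, while Nppa was brighter in Cy3. The atrial sum, whose log2 ratios lay close to those of Nppa on each array, was brighter in Cy3 too. Over the 7 mitochondrial members the median of the means was 0.19, with 1 gene, Dnaja3, brighter in Cy5 on all arrays (9.53% of all genes) and none brighter in Cy3 (11.9%).

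Small heat shock proteins had a median of -0.14, and of the 8 tested 0 were brighter in Cy5 on all arrays (9.53% of all genes) and 2 in Cy3 (11.9%). Hspb3, a muscle form that pairs with Hspb2, had a signal of 6237, 7178 and 7044 in Cy3 and of 4287, 6639 and 5121 in Cy5. It was brighter in Cy3 on all arrays, with log2 ratios of -0.54, -0.11 and -0.46 and a mean of -0.37 ± 0.23 (SD, n = 3). With normexp and median centring Hspb3 was at 0.11, above 0 but below the median of all genes, which that setting moved to 0.18. Hspb9, a testis form, had -0.33, -0.08 and -0.16.

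Hspb6 (Hsp20), a relaxation-linked form that is rich in heart muscle, and Hspb7, a heart form that binds sarcomere proteins, split the arrays in another way. Hspb6 had a signal of 15121, 19745 and 13689 in Cy3 and of 8339, 13057 and 16878 in Cy5. The log2 ratios of -0.86, -0.60 and 0.30 put replicate 3 alone on the Cy5 side. Hspb7 gave -0.54, -0.63 and 0.50, and its second probe gave -0.93, -0.72 and 0.57. Without replicate 3 both genes would lie below 0 on every remaining array.

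No other heart form lay on one side of 0 on all arrays. Cryab (αB-crystallin), which guards desmin and titin, had a signal of 44542, 74354 and 112297 in Cy3 and of 50473, 65623 and 92784 in Cy5, and its log2 ratios were 0.18, -0.18 and -0.28. A dimmer second Cryab probe gave -0.29, -0.31 and 0.49, with the opposite sign on replicates 1 and 3. Hspb2 lies inside the RefSeq span of Cryab on chromosome 9 (50751072 to 50752354 within 50745951 to 50756636) and had log2 ratios of -0.04, 0.12 and -0.09, a mean of 0.00 ± 0.11 (SD, n = 3). Hspb1 (Hsp25), which binds actin and is induced by stress, gave 0.22, -0.36 and 0.21. Hspb8, which works with Bag3 to clear damaged Z-disc proteins, gave 0.36, -0.18 and 0.33. Replicate 2 was below 0 for Cryab, Hspb1 and Hspb8.

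Among the DnaJB genes, 1 of 11 tested was on one side of 0 on all arrays, beside 9.53% of all genes on the Cy5 side and 11.9% on the Cy3 side. Dnajb14, a membrane protein of the endoplasmic reticulum, had log2 ratios of 0.23, 0.26 and 0.35, a mean of 0.28 ± 0.06 (SD, n = 3) that was 0.10 with normexp and loess. Dnajb1 (Hsp40), the classical heat-inducible partner of Hsp70, did not share the order of Hspa1a. The Cy3 signal of Dnajb1 read 8403, 11218 and 8748 and its Cy5 signal 10709, 17342 and 7699, with log2 ratios of 0.35, 0.63 and -0.18. Dnajb4, a related cytosolic form, gave 0.73, -0.06 and 0.14, and Dnajb5 gave -0.33, -0.78 and 0.51. Dnajb9 (ERdj4), a partner of BiP, gave -0.12, 0.21 and 0.11. Dnajb8 gave -0.22, 0.24 and 1.16, and Dnajb3, known from testis, gave -0.68, -0.54 and 0.05. The means of Dnajb10, Dnajb11 and Dnajb12 lay between -0.21 and 0.05. No order of arrays was shared by the family.

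The DnaJC genes are the most diverse group, in which only the J domain is common, and of 21 tested they held 6 on the Cy5 side on all arrays (28.6%, beside 9.53% of all genes) and 4 on the Cy3 side (19.0%, beside 11.9%). Dnajc2 (zuotin), a ribosome-bound partner of Hsp70, had a signal of 1505, 2068 and 1176 in Cy3 and of 1855, 2837 and 1401 in Cy5. Its log2 ratios were 0.30, 0.46 and 0.25, a mean of 0.34 ± 0.11 (SD, n = 3), but the other tested probe of Dnajc2 gave -0.29, 0.50 and 0.01. Dnajc12 had log2 ratios of 0.27, 0.66 and 0.01, and for Dnajc13, a protein of endosomes, they were 0.52, 0.03 and 0.12. Dnajc14 gave 0.12, 0.24 and 0.31. Dnajc5 (cysteine string protein), a chaperone of secretory vesicles, gave 0.01, 0.35 and 0.09. The sixth was Dnajc10 (ERdj5), a reductase of the endoplasmic reticulum, at 0.22, 0.31 and 0.00, and its mean turned to -0.04 with normexp and loess. Of the members on neither side, Dnajc16 (0.15, -0.31 and 0.59), Dnajc18 (-0.39, 0.04 and 0.32) and Dnajc4 (-0.29, 0.25 and -0.54) differed most between arrays after those given elsewhere. Dnajc1, Dnajc8, Dnajc11 and Dnajc21 had means within 0.2 of 0.

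On the Cy3 side, Dnajc9, a J protein of the nucleus that handles histones, had a signal of 5919, 9350 and 5986 in Cy3 and of 4889, 6992 and 4887 in Cy5. Its log2 ratios of -0.28, -0.42 and -0.29 had a mean of -0.33 ± 0.08 (SD, n = 3) and an unadjusted limma p of 0.0971. It was the only member to pass a ratio of 1.2 on all 3 arrays, as 2.04% of all genes did in Cy3 and 1.62% in Cy5. A second Dnajc9 probe gave -0.03, -0.45 and 0.03. The array p-values of the first probe were 0.180, 0.0435 and 0.155, so Dnajc9 did not pass the selection as read here. With the p of an unmoderated test over the 3 arrays in its place Dnajc9 passed, as 1.17% of all genes did in Cy3, and with the limma p it did not. Dnajc7 (Tpr2), which links Hsp70 with Hsp90, gave -0.12, -0.55 and -0.24 (a mean of -0.30, or 0.01 with normexp and median centring), and Dnajc17 gave -0.30, -0.42 and -0.16, with 0.14, -0.62 and 0.39 at its other probe. Dnajc3 (P58IPK, named Dnajc3a on the array), a partner of BiP, gave -0.39, -0.20 and -0.41 at its brightest probe. Its 3 other probes had means of 0.07, -0.06 and 0.12, so Dnajc3 had no side that its probes shared.

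Dnajc5b and Dnajc5g, testis relatives of cysteine string protein, had the largest SDs between arrays. Dnajc5b was dim, with a signal of 36.2, 19.2 and 106 in Cy3 and of 51.5, 24.9 and 22.4 in Cy5, and its log2 ratios were 0.51, 0.38 and -2.25. The other tested probe of Dnajc5b, of like signal, gave -0.28, 0.58 and -0.17, without the drop on replicate 3. Dnajc5g had a signal of 108, 89.5 and 691 in Cy3 and of 187, 176 and 378 in Cy5, with log2 ratios of 0.78, 0.98 and -0.87. At the brightest probes of both genes replicate 3 stood apart, with a bright Cy3 channel.

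Each channel was then compared between arrays, after centring it on its median over all tested genes. The Cy3 signal, which the labels give to WT, varied more than the Cy5 signal. The median SD of log2 signal over the members was 0.33 in Cy3 and 0.20 in Cy5, and Cy3 was the wider channel for 51 of 62 members (82.3%), beside 77.0% of all genes. The same held over all genes, with 0.37 in Cy3 and 0.22 in Cy5. Hspa1a and Hspa1b went the other way, while Hsp90aa1 (0.51 in Cy3 and 0.30 in Cy5) and Hsph1 (0.41 and 0.21) were wider in Cy3. Hspa1a had an SD of 0.64 in Cy3 and 1.14 in Cy5, and Hspa1b had 0.34 and 0.79. Hspb6 had an SD of 0.03 in Cy3 and 0.62 in Cy5. In these processed and centred signals its change of side on replicate 3 thus lay in Cy5. For Hspb7, with 0.61 in Cy3 and 0.11 in Cy5, the change of side lay in Cy3. Which pool differed between arrays was not tested.

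**Figure D4:**
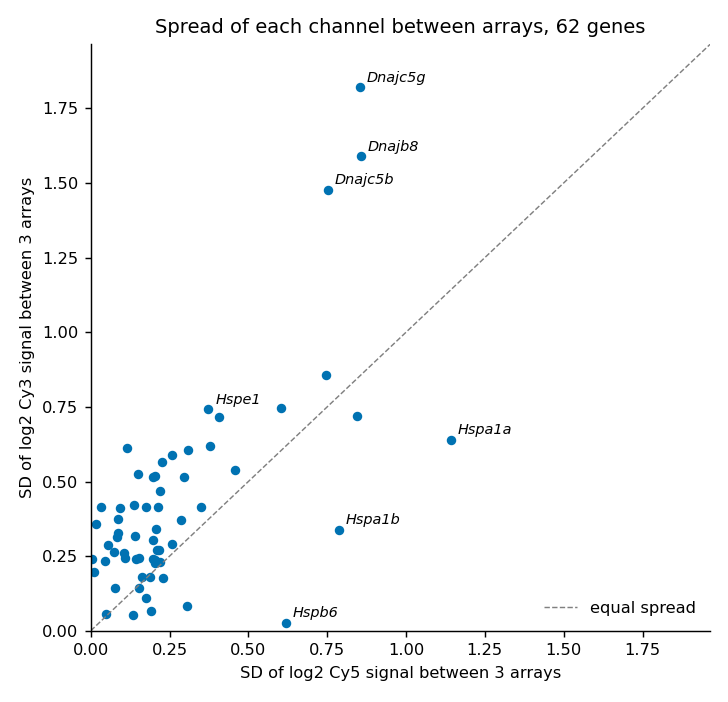
The horizontal axis is the SD of the log2 Cy5 signal and the vertical axis the SD of the log2 Cy3 signal between the 3 arrays, each channel centred on its median over all tested genes, each point is one of the 62 members and the dashed line marks equal spread. Of the 62 points 51 lie above the line, and Hspa1a, Hspa1b and Hspb6 lie below it.

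Probes of one gene were compared as a check of single ratios. In 35 members with several unsaturated tested probes, the 54 other probes differed from the brightest one by a median of 0.33, 0.21 and 0.35 (log2) on replicates 1, 2 and 3. Differences over 0.5 were seen for 9, 9 and 22 of these 54 probes, which is 16.7%, 16.7% and 40.7%, beside 27.5%, 29.5% and 33.0% of 9244 probes of all genes. Dnaja4 was an example, with 0.19 at its brightest probe and 1.71 at the other on replicate 3. On that array the signal of the dimmer probe was 82.9 in Cy3 and 270 in Cy5, against 461 and 523 on replicate 1. Hspa12a ran from -0.69 to 1.64 over its 4 probes on replicate 3. By the count over 0.5, replicate 3 was the array on which probes of a member differed most.

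**Figure D5:**
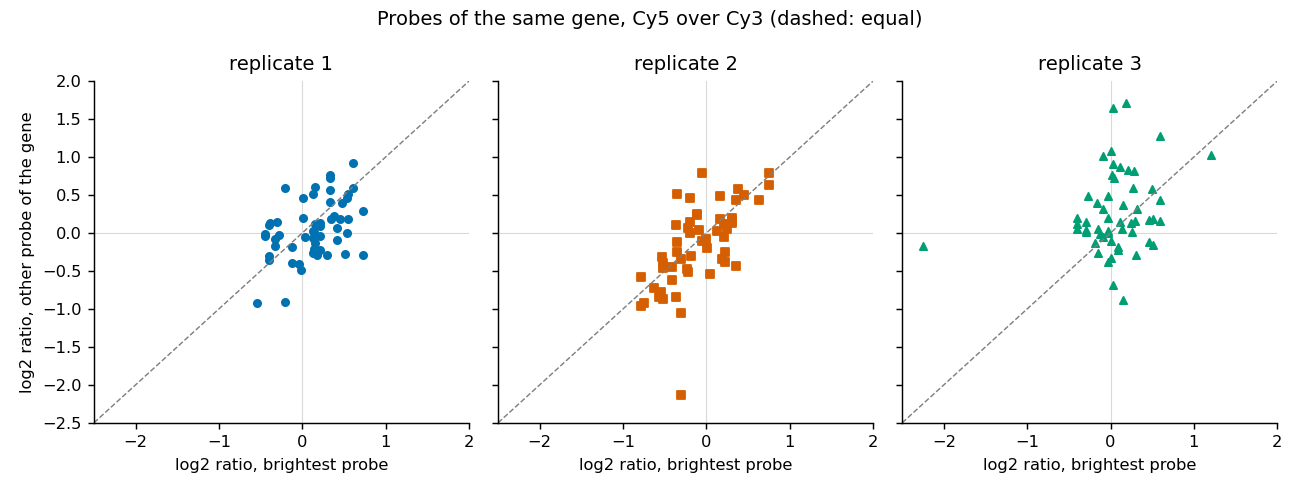
Each panel is one array, the horizontal axis is the log2 ratio (Cy5 over Cy3) at the brightest probe of a gene and the vertical axis that of another probe of the same gene, each point is one of 54 such probes of 35 members and the dashed line marks equal ratios. On replicate 3, at 22 of the 54 points the 2 probes differ by more than 0.5, against 9 on each of the other two arrays.

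Genes that work with these chaperones were read from 6 lists. Of 68 tested, 6 (8.82%) lay above 0 on each array and 7 (10.3%) below it, near the 9.53% and 11.9% of all genes, and limma called 0 of them. Hsf1, the factor that binds heat shock elements, gave -0.28, 0.22 and -0.13. Ptges3 (p23), which completes the Hsp90 cycle, gave 0.23, 0.31 and 0.46, and Fkbp5, an Hsp90 partner induced by glucocorticoids, gave 1.00, 0.93 and 0.05. Bag2, a regulator of Hsp70, gave 0.25, 0.17 and 0.33. On the Cy3 side Creld2, a stress gene of the endoplasmic reticulum, gave -0.59, -0.45 and -0.17, and Timm44, which anchors mortalin at the import pore, gave -0.13, -0.66 and -0.21. The immediate early genes, which respond to handling of tissue, had medians of 0.20, -0.21 and -0.15 over 8 genes. Their summed signal lay between 16807 and 25841 in Cy3 and between 19166 and 30967 in Cy5. The log2 ratios of the sums were 0.23, 0.26 and -0.01, so the median and the sum differed in sign on replicate 2. The part of these genes in the ratios of the inducible chaperones was not tested.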

How the data were processed

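The data were 3 two-colour Agilent whole mouse genome arrays. The authors deposited Feature Extraction output, in which the intensity of each channel had been background-subtracted and dye-normalized within the array (linear and lowess), the log10 ratio was that of Cy5 over Cy3, and the p-value described a single spot. A second deposited table, also of log10 ratios, was an alternative. Here, outlier spots were left out, spots of a probe were averaged, and log10 ratios were put on the log2 scale. Probes with a geometric mean processed signal of at least 20 over both channels were tested, 29576 in all. The mean log2 ratio was tested against 0 with limma 3.58.1 in R 4.3.3 (intercept, eBayes with trend, two-sided, Benjamini-Hochberg over all tested probes) and the script was tested on simulated data. With 3 arrays, p-values measure the spread between these pools only, and the number of arrays limits the precision. The arrays may lie on 1 slide, so no slide or scan term could be fitted. Symbols were matched to RefSeq by accession for 102 of 124 member probes. Genes were named if called or selected, if among up to 8 per direction with the largest mean ratio on one side of 0, if on a fixed list of heart and stress chaperones, if probes differed by over 0.5, if saturated, or if among the 3 largest SDs. All other members were named after their values were seen. The members and lists were chosen with earlier results of these data known. Alternatives were normexp (offset 50) with loess or median centring, other signal filters, other probes, each array left out, the second table and other tests.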

Additional observations from a re-analysis of the deposited data

How the results depend on the processing

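Limma called 0 member genes, which says nothing about stability since the member means are small for a test on 3 arrays, under every setting it was run with (normexp with loess, normexp with median centring, no signal minimum, only probes well above background, saturated probes kept, each replicate left out, the second table, no intensity trend), and so did the methods' t-test after adjustment. At an unadjusted p under 0.05 these settings gave 0 to 34 members. The highest number, 54.8% of the members beside 30.6% of all tested probes, came with normexp and median centring. The member shares count genes at their brightest probe and the shares beside them count probes, dim ones among them, so they are not alike in unit. The number of members was 11 (17.7% beside 4.83%) without replicate 2, 7 (10.6% beside 4.25%) with no signal minimum and 6 (9.68% beside 6.72%) with normexp and loess. For the t-test it was 4 (6.45% beside 4.21%), and without replicate 3 it was 2 (3.23% beside 6.72%). The other settings gave 0 members, beside 2.00% to 3.26% of probes. Normexp with median centring, unlike loess, fits no trend of the ratio along intensity. It moved the median of all genes to 0.18 and that of the members to 0.41, with 39 members above 0 on all arrays and 0 below it, and it turned 18 of the 26 member means below 0 to above it. Among the genes below 0 on all arrays these were Hspb3 (0.11), Dnajc7 (0.0118) and Hspa1l (0.20), of which Hspb3 and Dnajc7 stayed below the median of all genes. With normexp and loess Dnajc10 turned to -0.0386. With each replicate left out in turn, members brighter in Cy5 on all remaining arrays numbered 16 to 28 (20.9% to 24.7% of all genes), those brighter in Cy3 12 to 13 (21.3% to 28.7%), the selection took 0 to 4 in Cy5 (1.68% to 4.59% of all genes) and 0 to 3 in Cy3 (1.59% to 2.32%), and the median lay between 0.02 and 0.09. Fewer arrays to satisfy make such counts larger. Without replicate 2, 28 members were brighter in Cy5 on both remaining arrays, 23.4% of all genes being so, and 4 passed the selection there (1.68%). With the p of that t-test in place of the array p in the selection, 1 member passed in Cy3 (Dnajc9, beside 1.17% of all genes). The order with replicate 2 alone below 0, counted after the data had been seen, went from 17 members to 9, of which 4 were the same genes, with normexp and median centring. For the 18 genes on one side of 0 on all arrays, the 3 settings that could move a mean by over 1 SD (both normexp settings and the mean of all probes) gave 54 values, of which 29 moved by less than 1 SD between arrays, 21 moved by more and kept their sign, and 4 changed sign. Each ratio pairs both channels of one array, so the test was itself paired and no further block could be added. Signal over background limited Dnajc5b and the 4 untested genes.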
